A study of Mus musculus with 5 samples.

Results

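Engaged RNA polymerase was mapped over 9 genes of insulin-like growth factor (IGF) signalling in mouse embryonic fibroblasts (MEF) and mouse embryonic stem cells (MESC). The genes were taken by mm9 symbol from a list made for this comparison: the ligand gene Igf1, the receptor gene Igf1r, the receptor substrate gene Irs1 and the binding protein genes Igfbp2 to Igfbp7. They were chosen with earlier results of these data known. They are 9 of 19893 gene models that could be counted, and all 9 were kept. The assay was global run-on sequencing, in which nuclei are isolated and polymerases already on the DNA lengthen their RNA with a brominated base that is then used to pull it down, so a read marks the position and strand of a polymerase and not a stable RNA. The MEF (2 samples) came from a male E13.5 embryo, were at passage 2 and grew in 10% serum without LIF. The MESC (3 samples) were V6.5 ES cells at passages 12 to 14, grown on irradiated feeder cells with LIF in 15% serum. Cells of both kinds derive from C57Bl/6(f) x 129/Sv(m). The deposited reads of each cell type are pooled, so each cell type is 1 library, no replicate error can be given, and no difference between MEF and MESC was put to a test. All intervals are exact 95% intervals for counting error only, and they may be too narrow even for that, since copies of 1 molecule cannot be told from separate molecules.

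IGF ligands bind a receptor tyrosine kinase, IGF1R, which phosphorylates docking proteins such as IRS1 and so activates the PI3-kinase to AKT and the MAP kinase cascades that drive growth and survival. Outside the cell most IGF is held by binding proteins, which prolong its half-life, keep it from the receptor or, once cleaved by proteases or bound to matrix, release it near cells. Fibroblasts are a known source of IGF ligands and binding proteins in the embryo, and ES cells carry IGF and insulin receptors.

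The MEF library held 6571116 reads outside the mitochondrial genome and the MESC library 8571395. Density is given as RPKM (reads per kb of window, scaled to the total of these reads), and a fold is MEF density over MESC density unless stated otherwise. Gene bodies ran from 1000 bp after the start to the annotated end, and promoter windows covered 50 bp upstream and 300 bp downstream of it. A body was set down as different at a ratio of 4 or more where 1 library held at least 50 reads. Over the 9488 bodies with that many reads the median log2 ratio was -0.30, so the typical body was slightly less dense in MEF, and scaling to that median adds 0.30 to each log2 ratio below. By this rule 5.50% of the 9488 bodies, which are 47.7% of all models, were higher in MEF and 8.00% were lower. Of these calls 40.7% were thus on the MEF side, and 51.8% once scaled to the median. Marker genes went with the labels. The 6 ES cell genes tested were all at least 4-fold lower in MEF, with a summed density of 0.179 RPKM in MEF and 38.0 RPKM in MESC, and Zfp42, Tdgf1 and Lin28a were at 0 reads in MEF. The 9 fibroblast and matrix genes summed to 85.9 RPKM in MEF and 4.44 RPKM in MESC, where Lum alone was at 0. Where a cell mixture is read in bulk, fewer cells of a type and less transcription per cell cannot be told apart.

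The promoters of 4 binding protein genes are shown because these genes bound the range of responses in their family: Igfbp7 and Igfbp5 with the highest MEF over MESC ratios, and Igfbp3 and Igfbp2 with the lowest. Each runs 5′ to 3′ on the gene's own strand from 250 bases before to 50 bases after the annotated start (GENCODE starts, sequence of NCBIM37, the assembly named mm9). The coordinates are chr5:77837021-77837320 for Igfbp7, chr1:72921409-72921708 for Igfbp5, chr11:7113851-7114150 for Igfbp3 and chr1:72870827-72871126 for Igfbp2. Igfbp2 lies on the plus strand, and Igfbp7, Igfbp5 and Igfbp3 on the minus strand. Capitals mark matches to GGGCGG (read as CCGCCC on the opposite strand) or CACGTG.
Igfbp7: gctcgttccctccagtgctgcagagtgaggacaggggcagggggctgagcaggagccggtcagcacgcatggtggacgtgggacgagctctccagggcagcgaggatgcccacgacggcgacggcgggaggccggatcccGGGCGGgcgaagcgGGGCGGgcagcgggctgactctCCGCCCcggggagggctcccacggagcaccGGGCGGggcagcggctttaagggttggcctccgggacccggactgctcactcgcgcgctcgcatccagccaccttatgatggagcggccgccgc
Igfbp5: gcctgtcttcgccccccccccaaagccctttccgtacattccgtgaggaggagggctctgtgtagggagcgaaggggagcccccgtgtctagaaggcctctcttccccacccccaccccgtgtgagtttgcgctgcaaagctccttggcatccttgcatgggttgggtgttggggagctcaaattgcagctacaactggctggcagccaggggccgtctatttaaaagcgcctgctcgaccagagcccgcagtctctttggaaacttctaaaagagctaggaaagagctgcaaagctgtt
Igfbp3: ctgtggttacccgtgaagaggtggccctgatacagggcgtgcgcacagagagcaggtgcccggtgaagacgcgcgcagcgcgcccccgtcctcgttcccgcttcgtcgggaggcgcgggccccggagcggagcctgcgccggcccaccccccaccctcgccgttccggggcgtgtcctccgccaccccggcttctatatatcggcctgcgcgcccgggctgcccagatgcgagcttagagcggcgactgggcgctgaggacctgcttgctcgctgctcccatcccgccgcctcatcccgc
Igfbp2: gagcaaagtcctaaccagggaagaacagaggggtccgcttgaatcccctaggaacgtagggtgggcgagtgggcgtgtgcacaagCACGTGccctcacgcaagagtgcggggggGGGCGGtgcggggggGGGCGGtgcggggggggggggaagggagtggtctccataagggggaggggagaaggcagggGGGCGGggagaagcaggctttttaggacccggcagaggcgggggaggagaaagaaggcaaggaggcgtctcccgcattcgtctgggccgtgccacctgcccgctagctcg

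A further stretch is shown because nearly all MESC reads of Igfbp5 began in it. It is 120 bases of the first intron of Igfbp5 on the minus strand, chr1:72916789-72916908, and the capitals mark the 61 bases between the first and the last of those read starts.
Igfbp5 intron: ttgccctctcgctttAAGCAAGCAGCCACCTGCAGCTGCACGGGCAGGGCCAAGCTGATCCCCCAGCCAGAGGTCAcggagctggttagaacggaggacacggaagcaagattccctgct

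The promoters of 8 of the 9 genes, all but Igf1, were searched on both strands for 5 motifs, named in turn here, and no 2 matches overlapped. GGGCGG, a binding sequence of SP1-type factors, was present in 45.1% of 19888 promoters and in 4 of these 8: 4 matches in Igfbp7, 3 each in Igf1r and Igfbp2, and 2 in Irs1. CACGTG was present in 8.13% of all promoters and had 1 match each in Irs1 and Igfbp2. TATAAA was in 11.0% of all promoters and, of the 8, in Igfbp4, 28 bp before its start. CCAAT was in 37.5% of all promoters and, of the 8, in Igfbp6. TGACTCA, in 4.72% of all promoters, had no match in the 8 windows. Igfbp3 and Igfbp5 matched none of the 5 motifs. G+C content ran from 50.7% in Igfbp6 to 73.3% in Igfbp7, and only Igfbp6 lay below the median of 56% over all promoters. CpG numbers ran from 7 in Igfbp6 to 38 in Igfbp3, where the median promoter had 12. The promoters of the binding protein genes with the highest MEF ratios were unlike each other, with 33 CpG in Igfbp7 and 11 in Igfbp5.

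Bodies of 7 of the 9 genes were denser in MEF and those of Igfbp2 and Igfbp3 were denser in MESC. Of all bodies tested, 63.0% had a log2 ratio below -0.0226 and so were denser in MESC. Of the 9, 8 bodies had enough reads. Igfbp7, Igf1 and Igfbp5 passed 4-fold toward MEF and none passed it toward MESC, beside the 5.50% and 8.00% over all bodies. At 2-fold, Irs1 and Igf1r joined them on the MEF side and Igfbp2 and Igfbp3 stood on the MESC side, beside 12.6% and 20.7% of all bodies. The median log2 ratio over the 8 bodies was 1.60. Over the 5 binding protein bodies with enough reads it was 0.99. Igfbp6 had too few reads to be counted. Densities summed over the 9 genes were 13.3 RPKM in MEF and 7.86 RPKM in MESC.

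**Figure D1:**
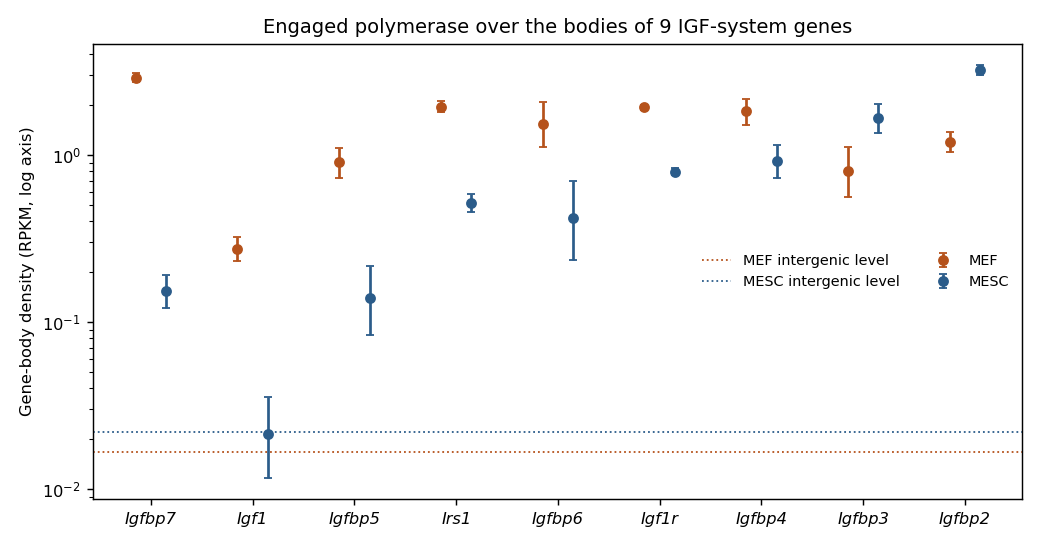
Gene-body density (RPKM, log axis) of the 9 genes in MEF (left point of each pair) and MESC (right point), ordered by ratio, with exact 95% Poisson intervals; dotted lines are the intergenic levels of the libraries. All MEF points lie well above the MEF intergenic level, and Igf1 in MESC, at 0.0212 RPKM, lies on the MESC level of 0.0218 RPKM.

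Igf1 encodes the ligand IGF-I, a secreted growth factor made in liver and in many mesenchymal cells (chromosome 10, 87321801 to 87399792, plus strand). Its body held 139 reads in MEF and 14 in MESC, or 0.275 RPKM (0.231 to 0.324) in MEF and 0.0212 RPKM (0.0116 to 0.0356) in MESC. The ratio was 13.0 (7.46 to 24.3), higher than 98.6% of the bodies tested. Among the 9 genes Igf1 was the least dense in both libraries. In MEF it stood at 16.4 times the intergenic level, and in MESC at 0.972 times that level, the only one of the 9 whose MESC interval did not clear it. All 9 cleared it in MEF, where 61.1% of all models did, and 8 of 9 in MESC, where 64.8% did. Igfbp5 was among these 8, with 18 of its 19 MESC body reads in 1 window of 1 kb. Igf1 in MESC was thus not detectable above background at this depth. Reads lay in 57 of 77 windows of 1 kb in MEF and in 12 of 77 in MESC. MEF was denser in all 10 equal parts of the body. The promoter window held 1 MEF read and 0 MESC reads, and the windows at 9 annotated Igf1 starts held between 0 and 4 MEF reads and at most 1 MESC read. In the first 2 kb past the annotated end there were 13 reads in MEF and 0 in MESC.

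Igf1r encodes the receptor tyrosine kinase through which IGF-I acts (chromosome 7, 75097713 to 75371326, plus strand). It was transcribed in both cell types, with 3461 body reads in MEF and 1857 in MESC, or 1.93 RPKM (1.87 to 2.00) in MEF and 0.795 RPKM (0.759 to 0.832) in MESC. At 2.43-fold higher in MEF (2.30 to 2.57), it was the most deeply read of the 9 genes and has the narrowest interval. A shorter annotated transcript starts 195744 bp inside the gene, and the promoter window there held 14 MEF reads and 5 MESC reads, against 5 MEF reads and 4 MESC reads at the first start. The excess in MEF was present on both sides of that internal start, at 2.36-fold before it (2.21 to 2.52) and 2.67-fold after it (2.38 to 3.00). In both libraries density was highest in the first of 10 equal parts, at 2.37 RPKM in MEF and 1.16 RPKM in MESC, and lowest in the ninth, at 1.50 RPKM in MEF and 0.565 RPKM in MESC. Past the annotated end reads went on, with 76 in MEF and 41 in MESC between 4 and 8 kb.

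Irs1 encodes the docking protein that links the IGF-I and insulin receptors to PI3-kinase (chromosome 1, 82229676 to 82287991, minus strand). Its body held 734 reads in MEF and 255 in MESC, or 1.95 RPKM (1.81 to 2.10) in MEF and 0.519 RPKM (0.457 to 0.587) in MESC. The ratio of 3.75 (3.25 to 4.35) lay just under 4, and the interval spans that threshold. Scaled to the median body the log2 ratio was 2.21, past it. MEF was denser in all 10 parts, with reads in 58 of 58 windows of 1 kb in MEF and in 54 of 58 in MESC. Before the start the order turned on the sense strand only. In the 5 kb upstream, that strand held 15 reads in MEF and 50 in MESC. Its density was 0.457 RPKM in MEF and 1.17 RPKM in MESC. In the part of this window more than 500 bp before the start, it held 2 reads in MEF and 35 in MESC. The turned order rests on that part. The opposite strand of the 5 kb held 17 reads in MEF and 22 in MESC. Its density was nearly equal, at 0.517 RPKM in MEF and 0.513 RPKM in MESC.

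**Figure D2:**
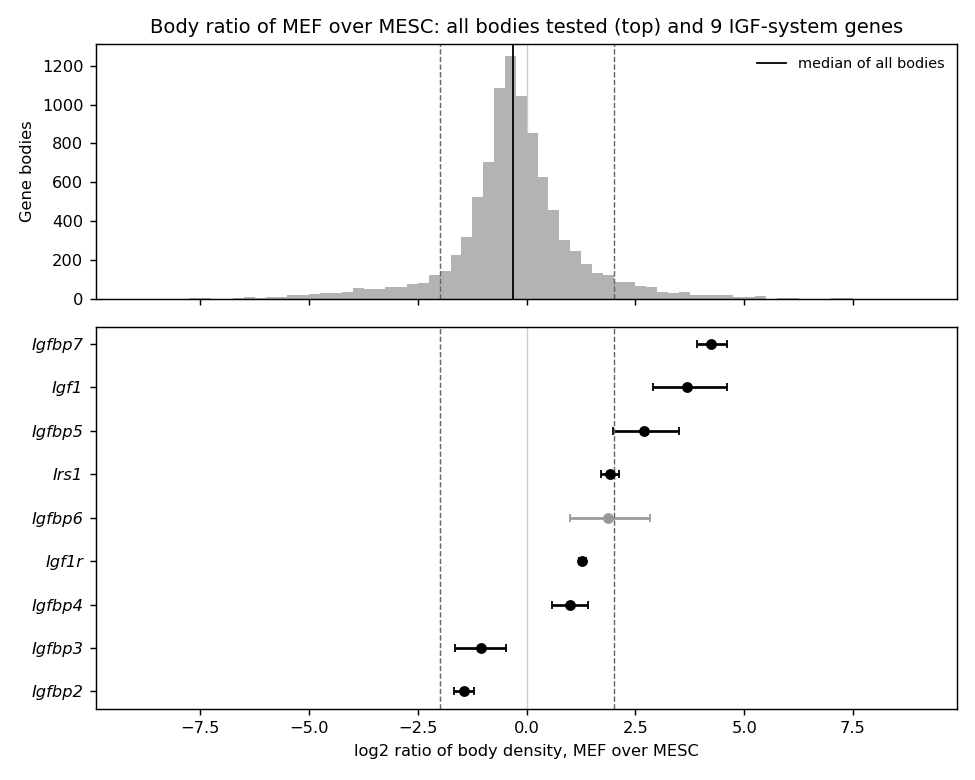
Top, number of gene bodies by log2 ratio of MEF over MESC density for the 9488 bodies tested; bottom, the 9 genes on the same axis with exact 95% intervals for counting error, Igfbp6 in grey because it had under 50 reads in both libraries. Dashed lines mark 4-fold in either direction; Igfbp7, Igf1 and Igfbp5 lie beyond the MEF side and no gene lies beyond the MESC side.

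The 6 binding protein genes fell on both sides. Igfbp7 had the highest MEF ratio of the 9 genes and Igfbp2 the lowest, and in MEF the order of densities was Igfbp7, Igfbp4, Igfbp6, Igfbp2, Igfbp5 and Igfbp3. In MESC the order was Igfbp2, Igfbp3, Igfbp4, Igfbp6, Igfbp7 and Igfbp5. In MEF the counting interval of Igfbp7 stood apart, and each neighbouring pair from Igfbp4 down overlapped. In MESC the neighbours stood apart except Igfbp7 and Igfbp5, whose intervals overlapped.

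Igfbp7 encodes a secreted protein of the vessel wall and connective tissue matrix that binds IGF with low affinity (chromosome 5, 77778265 to 77837070, minus strand). It held 1105 body reads in MEF and 76 in MESC, or 2.91 RPKM (2.74 to 3.09) in MEF and 0.153 RPKM (0.121 to 0.192) in MESC. The ratio was 19.0 (15.0 to 24.3), higher than 99.1% of the bodies tested. In MEF the reads ran through the gene, in 57 of 58 windows of 1 kb. In MESC they lay in 28 of 58 windows, and 42 of the 76 reads were in just 3 of them, those that begin 39000, 49000 and 50000 bp after the start. Without the 1 kb with the most MESC reads, 1071 reads in MEF and 58 in MESC remained, a ratio of 24.1 (18.5 to 31.9). Over the last 5.806 kb there were 68 sense reads in MEF and 0 in MESC, and over the 8 kb past the annotated end 320 in MEF and 5 in MESC. The opposite strand of the body was not lower in MESC: it held 101 reads in MEF and 169 in MESC, of which 40 in MEF and 120 in MESC lay in the last 5.806 kb. Polr2b, which encodes a subunit of RNA polymerase II, lies on that strand, runs toward Igfbp7 and overlaps its end by 85 bp. The promoter window held 8 reads in MEF and 4 in MESC.

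Igfbp5 encodes a binding protein that attaches to extracellular matrix (chromosome 1, 72904506 to 72921458, minus strand). It held 95 body reads in MEF and 19 in MESC, or 0.906 RPKM (0.733 to 1.11) in MEF and 0.139 RPKM (0.0837 to 0.217) in MESC, a ratio of 6.52 (3.96 to 11.3). The MESC reads did not run through the gene. Of the 19, 18 lay in 1 window of 1 kb, and 17 of these began at 11 distinct positions within the 61 bases in capitals in the intron sequence above, 4565 to 4625 bp after the start. MEF had 2 reads in those 61 bases. Outside that kb, 90 reads in MEF and 1 in MESC remained, a ratio of 117 (20.5 to 4688), or 39.1 with that read standing as 3, so the size of the MEF excess rests on this kb. MEF reads lay in all 16 windows of 1 kb. From 4.7 kb after the start to the end, MESC held 1 read, or 0.00952 RPKM. That is below the MESC intergenic level of 0.0218 RPKM, which the whole body cleared. A second annotated start lies 609 bp inside the gene, and its promoter window held 11 reads in MEF and 0 in MESC, while the first start held 2 reads in MEF and 0 in MESC. In the first 2 kb past the end there were 21 reads in MEF and 0 in MESC.

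Fibroblast and contractile markers were denser in MEF, the direction for which the 3 genes past 4-fold were picked. With 2 libraries that shared direction was fixed by the choice, and no link between the genes and these markers was tested. Summed over the fibroblast and matrix list, MESC density was 0.0517 of MEF density, and over 5 contractile genes, with 53.7 RPKM in MEF and 3.01 RPKM in MESC, it was 0.0561. These sums rest largely on 1 gene each in MESC, Fn1 with 2.49 of 4.44 RPKM and Tagln with 2.04 of 3.01 RPKM. Gene by gene the share of MESC in MEF density, with counts under 3 standing as 3, ran from 0.00749 in Postn to 0.256 in Dcn for fibroblast genes with 50 reads, and from 0.00527 in Acta2 to 0.511 in Cnn1 for contractile genes. The macrophage and blood list also went this way, with 7 of 7 countable genes above the intergenic level in MEF and 2 of 7 in MESC, and a summed density of 2.80 RPKM in MEF and 0.202 RPKM in MESC. Cartilage genes summed to 5.52 RPKM in MEF and 1.29 RPKM in MESC, and endothelial genes to 0.268 RPKM in MEF and 0.533 RPKM in MESC. Of 3 liver genes Ttr had 9 reads in MEF and 1 in MESC, and Alb and Afp had at most 1 read in either. The part of feeder cells in the MESC reads, and of other cell types in the MEF reads, was not tested.

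**Figure D3:**
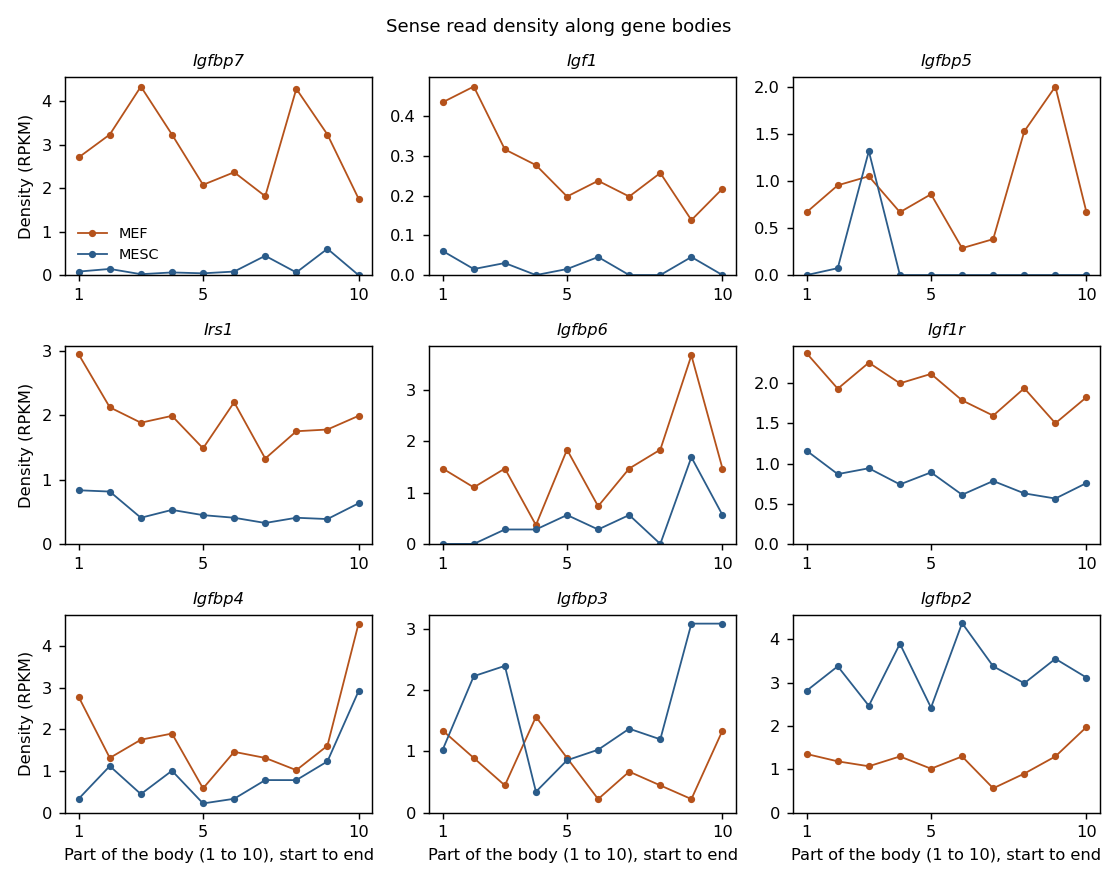
Sense read density (RPKM, linear axes that differ between panels) in 10 equal parts of each gene body, from start to end, in MEF and MESC. MEF is denser in 10 of 10 parts in Igfbp7, Igf1, Irs1, Igfbp6, Igf1r and Igfbp4, and MESC in 10 of 10 in Igfbp2; in Igfbp5 the MESC reads sit in the third part, at 1.32 RPKM.

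Igfbp6 encodes the binding protein that prefers IGF-II (chromosome 15, 101974793 to 101979942, plus strand). With 42 body reads in MEF and 15 in MESC it missed the minimum of 50. Its density was 1.54 RPKM (1.11 to 2.08) in MEF and 0.422 RPKM (0.236 to 0.696) in MESC, a ratio of 3.65 (1.98 to 7.09). MEF was denser in all 10 parts, but 16 of the MEF reads and 8 of the MESC reads were in 1 kb near the end of the gene. The next gene on the same strand, Soat2, begins 6164 bp after the start of Igfbp6, so reads past the end of Igfbp6 cannot be told from those of Soat2. Its promoter window held 10 reads in MEF and 10 in MESC.

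Igfbp4 encodes a binding protein known mainly as an inhibitor of IGF action and as the main substrate of the protease PAPP-A (chromosome 11, 98902558 to 98913969, plus strand). It held 125 body reads in MEF and 82 in MESC, or 1.83 RPKM (1.52 to 2.18) in MEF and 0.919 RPKM (0.731 to 1.14) in MESC, a ratio of 1.99 (1.49 to 2.66). In both libraries the last of 10 parts was the densest, at 4.53 RPKM in MEF and 2.91 RPKM in MESC. Transcription ran past the annotated end in both, with 43 reads in MEF and 31 in MESC in the first 2 kb.

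Igfbp3 encodes the main carrier of IGF in blood (chromosome 11, 7106089 to 7113900, minus strand). It held 36 body reads in MEF and 97 in MESC, or 0.804 RPKM (0.563 to 1.11) in MEF and 1.66 RPKM (1.35 to 2.03) in MESC, 2.07-fold lower in MEF (1.40 to 3.12). The excess in MESC was not even along the gene: MEF was denser in 3 of 10 parts and MESC in 7. It also depended on which MESC reads were counted, with a log2 ratio of -0.31 for MESC reads of 35 bases and -1.48 for those of 36 bases. Whether read length marks separate MESC samples of the pool is not given in the labels. Scaled to the reads of that length, the MESC body had 0.997 RPKM by reads of 35 bases and 2.24 RPKM by those of 36 bases. Igfbp1, which lies 3539 bp away and converges on Igfbp3, had no body read in either library.

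Igfbp2 encodes a binding protein of the early embryo and fetus and was the gene most biased to MESC (chromosome 1, 72871077 to 72899048, plus strand). It held 212 body reads in MEF and 748 in MESC, or 1.20 RPKM (1.04 to 1.37) in MEF and 3.24 RPKM (3.01 to 3.48) in MESC, 2.70-fold lower in MEF (2.32 to 3.17). Scaled to the median body its log2 ratio was -1.13. MESC was denser in all 10 parts. MEF was not silent, with reads in 26 of 27 windows of 1 kb and a density 71.4 times the intergenic level. At the first annotated start the promoter window held 1 read in MEF and 18 in MESC. Windows at the later annotated starts, of which that at 64 bp largely overlaps the first, differed less, but on few reads. They held 2 reads in MEF and 13 in MESC at 64 bp, 5 and 14 at 819 bp, and 2 and 6 at 24196 bp. The 2 kb upstream of the first start held 2 sense reads in MEF and 64 in MESC. On the opposite strand, within 500 bp upstream of the start, there were 0 reads in MEF and 17 in MESC. A wider window, from 250 bp upstream to 500 bp downstream, also covers the GGGCGG matches shown above, and in it there were 4 reads in MEF and 34 in MESC, 6.52-fold lower in MEF (2.32 to 25.3), an interval that overlaps that of the body.

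Igfbp2 and Igfbp5 are neighbours that converge, their ends 5457 bp apart, and they went in opposite directions. The strand of Igfbp2 was read through most of the gap in both libraries, with 89 reads in MEF and 162 in MESC. On the strand of Igfbp5 the gap held 30 reads in MEF and 0 in MESC. Between 4 and 8 kb past its end, the strand of Igfbp2 held 6 reads in MEF and 0 in MESC.

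**Figure D4:**
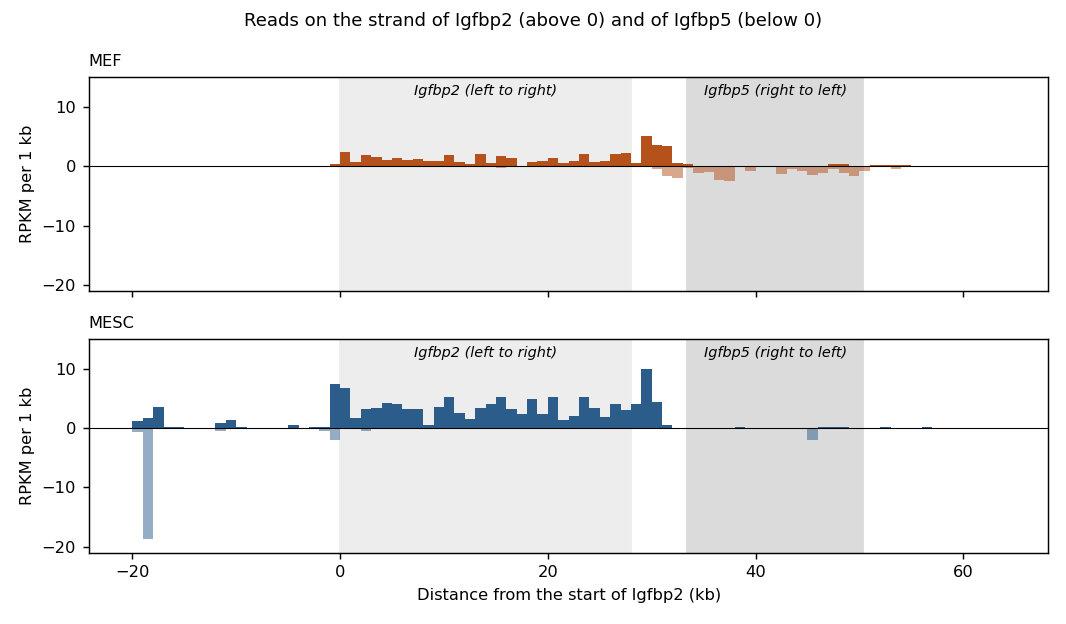
Read density (RPKM per 1 kb) by distance from the start of Igfbp2 in kb, MEF above and MESC below; bars above 0 are the strand of Igfbp2 and paler bars below 0 the strand of Igfbp5, and shading marks the genes. Igfbp2 is read in both libraries, and Igfbp5 along most of its length in MEF and mainly within 1 kb in MESC. MESC has further reads on both strands about 20 to 16 kb before Igfbp2.

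Few reads lay in the promoter windows of these genes. No promoter window of the 9 reached 20 reads in either library, where 21.9% of all gene models did so in at least 1 library, so promoter ratios were not compared. The 2 sets are not alike in body reads, since 47.7% of all models had 50 of them and 8 of these 9 genes did. Over the 4350 promoters with that many reads, 3.01% passed 4-fold toward MEF and 6.07% toward MESC. A gene counts as promoter-weighted with an index, promoter over body density, of at least 2 and at least 20 promoter reads, which none of the 9 had, so the indices that follow only describe. The index was below 2 in MEF for all 7 genes with at least 50 body reads, where 65.7% of such bodies were at 2 or more. In MESC it was 2 or more in 3 of 6, at 2.60 (1.34 to 4.66) in Igfbp3, 2.17 (0.774 to 4.93) in Igfbp4 and 8.67 (2.30 to 23.1) in Igfbp7, where 67.9% of such bodies were. These indices rest on 4 to 13 promoter reads. With fewer than 50 body reads, the index was 3.23 (1.11 to 7.75) in Igfbp3 in MEF. In Igfbp6 it was 2.82 (1.26 to 5.70) in MEF and 7.88 (3.17 to 18.8) in MESC. Counted at the annotated start with the most reads, 3 of 7 genes reached 2 in MEF, namely Igf1, Igf1r and Igfbp5, where 77.7% of 7504 bodies did. Which genes reached 2 in MESC also changed with the setting, Igfbp3 and Igfbp4 falling below it in a window from 250 bp upstream to 500 bp downstream while Igf1r and Irs1 reached it. The nearest pattern among other genes was to be named for genes with enough body and promoter reads, and 0 of the 9 were among the 3757 genes that had both.

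Among the other genes of the pathway, a list of 53 was counted. Of these, 38 bodies had enough reads, 5 passed 4-fold toward MEF, 0 passed it toward MESC and 33 lay in between, beside 5.50% and 8.00% of all bodies past 4-fold toward MEF and MESC. These 38 had a median log2 ratio of 0.03, where all bodies had -0.30. The list was made with earlier results of these data known, Pappa among them.

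The group of binding protein proteases and their inhibitors had 4 genes with enough reads, and its 3 proteases passed 4-fold toward MEF. Pappa encodes pappalysin-1, which cleaves IGFBP4 and IGFBP5 and so frees IGF; it held 3210 reads in MEF and 29 in MESC, a ratio of 144 (100.3 to 216). Htra1, for a secreted serine protease, held 332 reads in MEF and 87 in MESC, a ratio of 4.98 (3.92 to 6.38). Adamts1, for a metalloprotease of the ADAMTS family, held 306 reads in MEF and 88 in MESC, a ratio of 4.54 (3.57 to 5.82). Stc2, which encodes an inhibitor of pappalysins, lay within 4-fold with 120 reads in MEF and 223 in MESC. Stc1, the other inhibitor gene of the list, had too few reads to be counted and leaned toward MEF. It held 38 reads in MEF and 3 in MESC, a ratio of 16.5 (5.24 to 83.7).

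Among receptors the 3 tested genes lay within 4-fold. The insulin receptor gene Insr held 371 reads in MEF and 449 in MESC, a ratio of 1.08 (0.937 to 1.24). Igf2r, whose product clears IGF-II, held 420 in MEF and 638 in MESC, a ratio of 0.859 (0.757 to 0.973). Of the ligands Igf2 held 185 reads in MEF and 16 in MESC, a ratio of 15.1 (9.04 to 26.9), but its model holds Mir483 on the same strand and was left out of the counts. Ins2 had no body read in either library.

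Substrates and adaptors had 1 of 7 genes past 4-fold. Grb14, for an adaptor that inhibits insulin receptor signalling, held 265 reads in MEF and 61 in MESC, a ratio of 5.67 (4.28 to 7.61). Irs2, the close relative of Irs1, held 395 reads in MEF and 488 in MESC, a ratio of 1.06 (0.922 to 1.21), an interval that does not overlap that of Irs1. Grb10, an imprinted adaptor gene, held 1676 in MEF and 1060 in MESC, a ratio of 2.06 (1.91 to 2.23). All 16 kinase cascade genes tested lay within 4-fold, with a median log2 ratio of -0.04.

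Of 5 transcription factor genes Stat5b, which acts downstream of growth hormone, had 415 reads in MEF and 114 in MESC, a ratio of 4.75 (3.85 to 5.89). The genes for the RNA-binding proteins of Igf2 mRNA did not go together. Igf2bp2 held 833 reads in MEF and 340 in MESC, a ratio of 3.20 (2.81 to 3.64). Igf2bp3 held 670 in MEF and 1793 in MESC, 2.05-fold lower in MEF (1.88 to 2.25). Igf2bp1, which shares its strand and part of its span with another annotated gene, held 727 in MEF and 2361 in MESC, 2.49-fold lower in MEF (2.29 to 2.71).

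**Figure D5:**
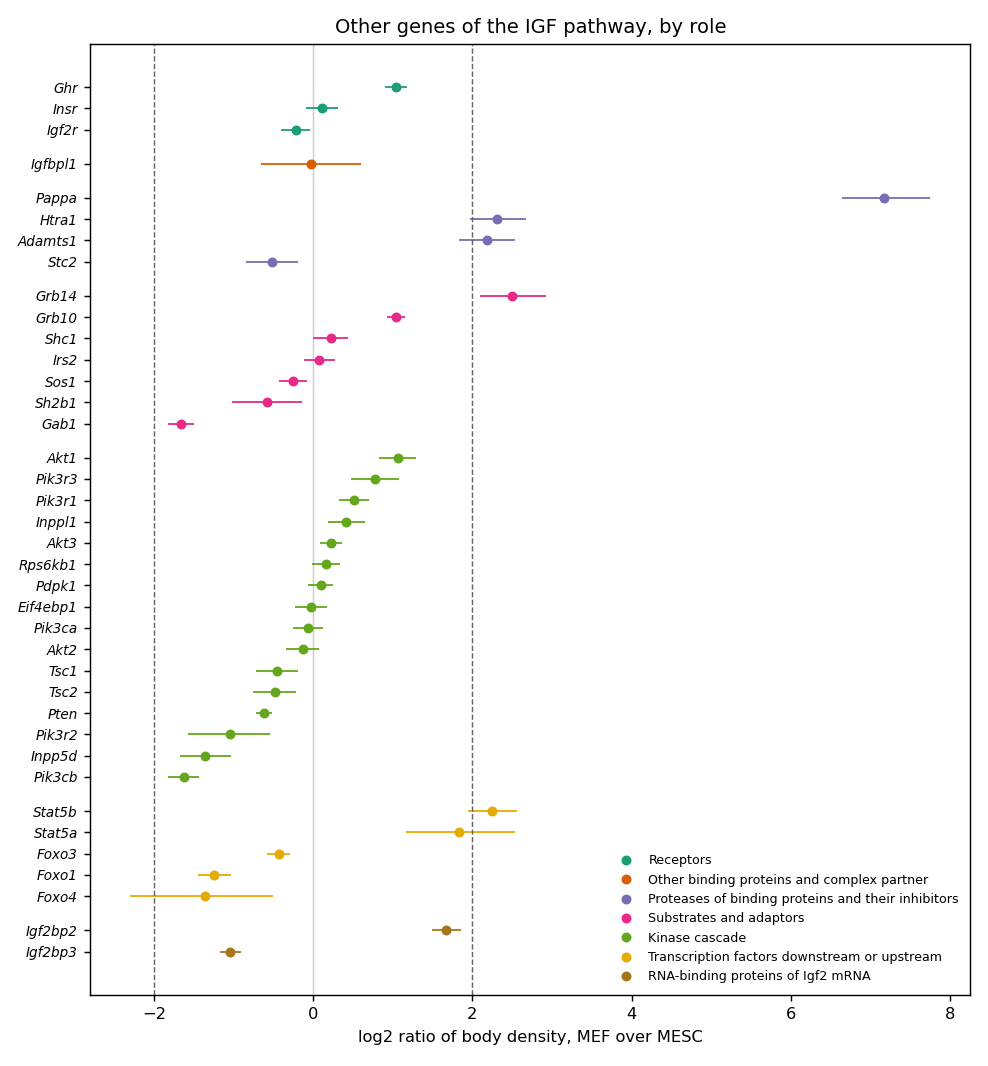
Log2 ratio of MEF over MESC body density of the 38 other pathway genes with enough reads, by role, with exact 95% intervals for counting error; dashed lines mark 4-fold. Pappa, at 144-fold, stands far to the MEF side, Htra1, Adamts1, Grb14 and Stat5b lie past 4-fold, and all kinase cascade genes lie between the lines.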

How the data were processed

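Run-on RNA of 2 MEF and 3 MESC samples was sequenced. The authors used Eland on the mm9 assembly and took out reads in rRNA-like regions, per the series' design text, and pooled the MEF libraries and the MESC libraries, per the file headers. Not given in the sources used here are the Eland version and how multiple matches and duplicates were handled. The deposited values are raw counts, 1 line per read, with no normalization by the authors. Samples were grouped by title, but reads carry no sample name: the edgeR test planned for separable samples could not be made, and each file is 1 library. Of every 400th read, 95.6% in MEF and 92.6% in MESC matched NCBIM37 with at most 2 mismatches, the listed position being the 5′ end. The 9 genes and all lists were chosen with earlier results of these data known.

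GENCODE models, the longest transcript per gene of at least 2000 bp, numbered 22885; 2992 whose body overlaps another gene of the same strand were left out. Sense reads were counted by 5′ end with Python 3.11.15, NumPy 2.4.6 and SciPy 1.17.1. Density was scaled to reads outside mitochondria. Some rRNA-like reads remained in the deposited files and stayed in these totals. At 2 rDNA-like loci lay 16.4% of these reads in MEF and 11.6% in MESC. With totals that leave them out, the body log2 ratio of Irs1 was 1.99, and 3 of the 9 genes passed 4-fold toward MEF. Counts under 3 stand as 3 in ratios, except where a ratio of 1 read is given with its own interval. Ratios have Clopper-Pearson conditional intervals and densities Poisson intervals. Intergenic levels, more than 10000 bp from genes, were 0.0168 RPKM in MEF and 0.0218 RPKM in MESC. TMM factors came from edgeR 4.0.16. Counting was tested on simulated data. Named were all 9 genes, pathway genes past 4-fold, and Igf2, Igf2r, Insr, Irs2, Grb10, Pappa and the Igf2bp genes whatever their values. Stc1, Stc2 and Ins2 were added once their values were known. The windows upstream of Igfbp2 and Irs1, within and past Igfbp7 and in the Igfbp5 intron were chosen after their reads were seen. The promoter sequence of Igf1 is not reported here. Alternatives covered scaling, duplicate positions, read length, windows, starts and minimums.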

Additional observations from a re-analysis of the deposited data

How the results depend on the processing

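No paired analysis was possible because the reads of a cell type are pooled and carry no sample name; for the same reason the replicate block and leaving out each replicate were not run. Each of the 9 genes kept the sign of its body ratio in all 14 settings that give one. Of 189 body and promoter values of single genes, 171 stayed within their counting interval and 18 left it. Part of the 171 could not move. Settings that change only the read minimum or the fold called repeat the main ratios. The first 20000 bp also hold the whole body of the shorter genes, Igfbp3 to Igfbp6. Among promoter ratios, which rest on few reads, that of Irs1 changed sign, with log2 0.80 becoming -0.31 with MESC reads of 35 bases and -0.10 with those of 36, and that of Igfbp4 did, with 0.12 becoming -0.19 with those of 36. Body log2 ratios ranged from 3.98 to 5.60 in Igfbp7, 3.39 to 4.02 in Igf1, 2.35 to 5.29 in Igfbp5 (the highest without its densest MESC kb, 1 read standing as 3), 1.65 to 2.29 in Irs1, 1.02 to 1.58 in Igf1r, -1.48 to -0.31 in Igfbp3 and -1.64 to -1.13 in Igfbp2. Genes at least 4-fold higher in MEF numbered 3, and 1 with a minimum of 200 reads, where Igf1 and Igfbp5 have too few; at 2-fold they numbered 5, with 2 lower in MEF. They numbered 4 under median-ratio scaling, under TMM factors and with MESC reads of 35 bases, Irs1 being the gene added. Of all bodies past 4-fold, 40.7% were higher in MEF, and 51.8% under median-ratio scaling, 51.0% under TMM factors, 56.2% with MESC reads of 35 bases and 51.9% with a minimum of 200 reads. The pathway list's median log2 ratio of 0.03 became 0.33 under median-ratio scaling, 0.31 under TMM factors, 0.16 with each position counted once and 0.20 with MESC reads of 35 bases; the scalings shift every ratio by construction. With no minimum of reads all 9 promoters enter and 1 is past 4-fold, Igfbp2; in the window from 250 bp before to 500 bp after the start 2 have enough reads, Igfbp2 and Irs1, and 1 is past 4-fold. Indices of 2 or more in MEF numbered 0, and 3 at the start with the most reads and 1 with that wider window, an alternative chosen after seeing the data, as were leaving out the densest kb and keeping overlapping models. In MESC the 3 indices of 2 or more became those of Igfbp4 and Igfbp7 with each position counted once, Igfbp3 and Igfbp4 over the first 20000 bp, Igf1r, Irs1 and Igfbp7 in the wider window, and 4 at the start with the most reads. At 14 to 19 MESC body reads, depth limits Igf1, Igfbp5 and Igfbp6 most.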

Other observations

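The region before Igfbp2 was looked at after its values were seen. Between 20 and 16 kb upstream of Igfbp2 (chromosome 1, 72851077 to 72855076), where no gene is annotated, the strand of Igfbp2 held 0 reads in MEF and 56 in MESC, and the opposite strand held 1 in MEF and 166 in MESC, at 67 distinct MESC positions. Between this region and 2 kb before the start, the strand of Igfbp2 held 0 reads in MEF and 28 in MESC, and the other strand 1 in MEF and 12 in MESC.

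In Igf1 the MEF body held 86 reads in the first 5 of 10 equal parts and 53 in the last 5, and the MESC body 8 and 6. In Igfbp7 the 8 kb past the annotated end were denser in MEF than the body itself, at 6.09 RPKM past the end and 2.91 RPKM in the body. In MEF, exons were denser than introns in Igfbp2, Igfbp3, Igfbp4, Igfbp5, Igfbp6 and Irs1. Exons and introns were at 1.34 and 0.709 RPKM in Igfbp5 and at 3.67 and 1.52 RPKM in Igfbp4. Exons were less dense than introns in Igf1r, at 1.43 and 1.94 RPKM, and also in Igfbp7 and Igf1. Several of these contrasts rest on few MEF exon reads and none was tested. There were 8 exon reads each in Igfbp7 and Igfbp6, 9 in Igf1, 10 in Igfbp2 and 13 in Igfbp3.

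Adam12, whose product cleaves IGF binding proteins, held 4098 body reads in MEF and 31 in MESC, a ratio of 172 (121 to 254), but another annotated gene shares part of its span and strand, so it entered no count. It was named after its values were seen.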
